A study of Mus musculus with 14 samples.

Results

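The genes described are 10 chains of cytokine receptors: Il12rb1, Il12rb2, Il18r1, Il6st, Il2rg, Il2ra, Il2rb, Il4ra, Il7r and Il21r. They were taken by gene symbol from each of the deposited tables. All 10 were present in both, among 12843 genes in the table with IFN-beta and 14732 in the table without it. RNA came from naive CD8 T cells, sorted from C57BL/6 spleens for high CD62L and low CD44, and all cells were activated for 6 h on anti-CD3 bound to plates (1 µg/mL) with anti-CD28 in solution (1 µg/mL). The groups were 4 libraries labelled Morrbid-/- and 4 wild-type libraries with 20 ng/mL IFN-beta added, then 3 and 3 of the same genotypes without it. Morrbid is a long noncoding RNA encoded near Bcl2l11. The labels do not say which bases were deleted or whether replicates came from separate animals, so p-values measure the spread between these libraries, which may be technical.

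Cytokine receptors of this kind carry no enzyme of their own. Ligand binding brings chains together, the JAK kinases attached to them phosphorylate each other, and STAT transcription factors are recruited and move to the nucleus. Private chains set which cytokine is bound, while shared chains such as the common gamma chain (Il2rg) and gp130 (Il6st) serve several cytokines. The interleukin-18 receptor belongs to another family and signals through MyD88 and IRAK kinases. In CD8 T cells, interleukin-7 supports survival of naive cells, interleukin-2 growth after activation, and interleukin-12 and interleukin-18 effector function.

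Recovered reads per library ranged from 5788070 to 7355337 with IFN-beta and from 1747634 to 2963149 without it. Mitochondrial 16S rRNA took 9.05% to 12.0% of reads with IFN-beta and 11.6% to 18.9% without it. All 8 CD8 T cell markers were present in both tables. Of the CD4 and regulatory T cell markers, Ikzf2 held nearly all counts and Foxp3 averaged at most 6.84 normalized counts in any group. Zbtb7b had 0 reads without IFN-beta, and Cd4 was looked for by symbol and found in neither table. Summed B cell, NK cell and myeloid markers reached at most 35.9 normalized counts in any library. Morrbid, listed as Gm14005, had 7, 4 and 7 reads in the libraries labelled Morrbid-/- without IFN-beta, against 2, 4 and 2 reads in wild type. The ratio of read rates was 2.88 (95% counting interval 1.19 to 7.65), which did not show the loss that the labels give, so every direction here follows the labels. Morrbid with IFN-beta was not analysed here.

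The sequences upstream of the 3 genes that passed the genotype test are shown because interferons and interleukins act on genes through STAT sites. They come from RefSeq (GRCm38.p6), each read 5′ to 3′ on the strand of its gene and limited to bases outside annotated exons of that gene. Il12rb2 is chr6:67376294-67376438 on the minus strand, Il18r1 is chr1:40465811-40465969 on the plus strand, upstream of the last of 3 annotated starts and inside the gene, and Il6st is chr13:112463820-112464069 on the plus strand. Capitals mark matches to TTCNNNGAA, the palindromic STAT motif called GAS, or to a loose kappaB motif of GGG, any 5 bases and CC, on either strand.
Il12rb2: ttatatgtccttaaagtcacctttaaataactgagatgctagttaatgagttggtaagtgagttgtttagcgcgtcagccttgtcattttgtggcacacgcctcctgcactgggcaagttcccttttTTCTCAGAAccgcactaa
Il18r1: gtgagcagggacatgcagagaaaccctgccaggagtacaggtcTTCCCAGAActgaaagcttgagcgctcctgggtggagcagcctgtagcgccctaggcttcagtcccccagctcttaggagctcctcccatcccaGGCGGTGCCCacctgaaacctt
Il6st: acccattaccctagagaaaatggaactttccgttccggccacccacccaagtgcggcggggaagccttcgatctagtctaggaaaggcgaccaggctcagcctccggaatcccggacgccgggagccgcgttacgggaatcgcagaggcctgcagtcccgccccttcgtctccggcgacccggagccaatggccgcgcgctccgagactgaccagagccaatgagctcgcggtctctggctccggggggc
The match in Il12rb2 began 123 bases before the start from which its window was taken. That start lies inside the gene coordinates given below, and the Il12rb2 bases shown lie 250 to 106 before it. The GAS match shown in Il18r1 began 152 bases before the Il18r1 start. The capitals nearer the Il18r1 start, 58 bases before it, are the kappaB match. Another GAS match began 219 bases before that start and is not shown. The windows before the other annotated starts of Il18r1 held no match. The Il6st window held no match.

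Of the 10 genes, 8 had a promoter entry. In windows of 250 bases before the start, GAS occurred in 3 of them (Il7r, Il12rb2 and Il18r1) and the kappaB motif in 3 (Il2ra, Il18r1 and Il21r). The interferon-stimulated response element, searched as GAAA, any 2 bases and GAAA, and the AP-1 motif TGANTCA were in none of the 8. Over all 32536 distinct promoter windows, GAS occurred in 7%, the kappaB motif in 46%, the response element in 3% and TGANTCA in 6.7%. These shares are per window, while Il18r1 has 3 annotated starts and counted through the window of the last alone. The matches describe letters only and say nothing of binding.

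The genotypes of each table were tested against each other by limma, on log2(normalized count + 1), with Benjamini-Hochberg adjustment over all genes tested and a threshold of 0.05. Differences are the libraries labelled Morrbid-/- minus wild type. With IFN-beta, 2 of 10 receptor chains were lower and 0 higher in the libraries labelled Morrbid-/-, against 4.84% of all 9964 genes tested called lower and 5.25% called higher. The chains were Il18r1 and Il6st, and by edgeR and by DESeq2 the counts were also 2 and 0. An unadjusted p under 0.05 was reached by 3 chains, all lower, beside 2434 of the 9964 genes tested in either direction. Without IFN-beta, 1 of 9 tested chains was higher, Il12rb2, and 0 were lower, against 0.538% of 9290 genes called higher and 0.0969% called lower. By edgeR and by DESeq2 those counts were again 1 and 0. In limma, 1 chain in each direction reached an unadjusted p under 0.05, beside 567 of the 9290 genes.

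The genotypes did not overlap for 2 tested chains with IFN-beta, where 15.2% of all genes did not, and for 2 without it, where 10.9% did not. The medians over the tested chains were -0.04 on the log2 scale with IFN-beta and -0.03 without it, beside 0.00 and -0.01 over all genes. The coefficient of variation within a group ran from 1.80% to 19.3% with IFN-beta and from 1.91% to 58.4% without it, the highest being Il12rb2 in wild type. For each tested chain that did not pass, the 95% interval of the log2 difference lay between -0.46 and 0.29 with IFN-beta and between -0.55 and 0.28 without it.

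**Figure D1:**
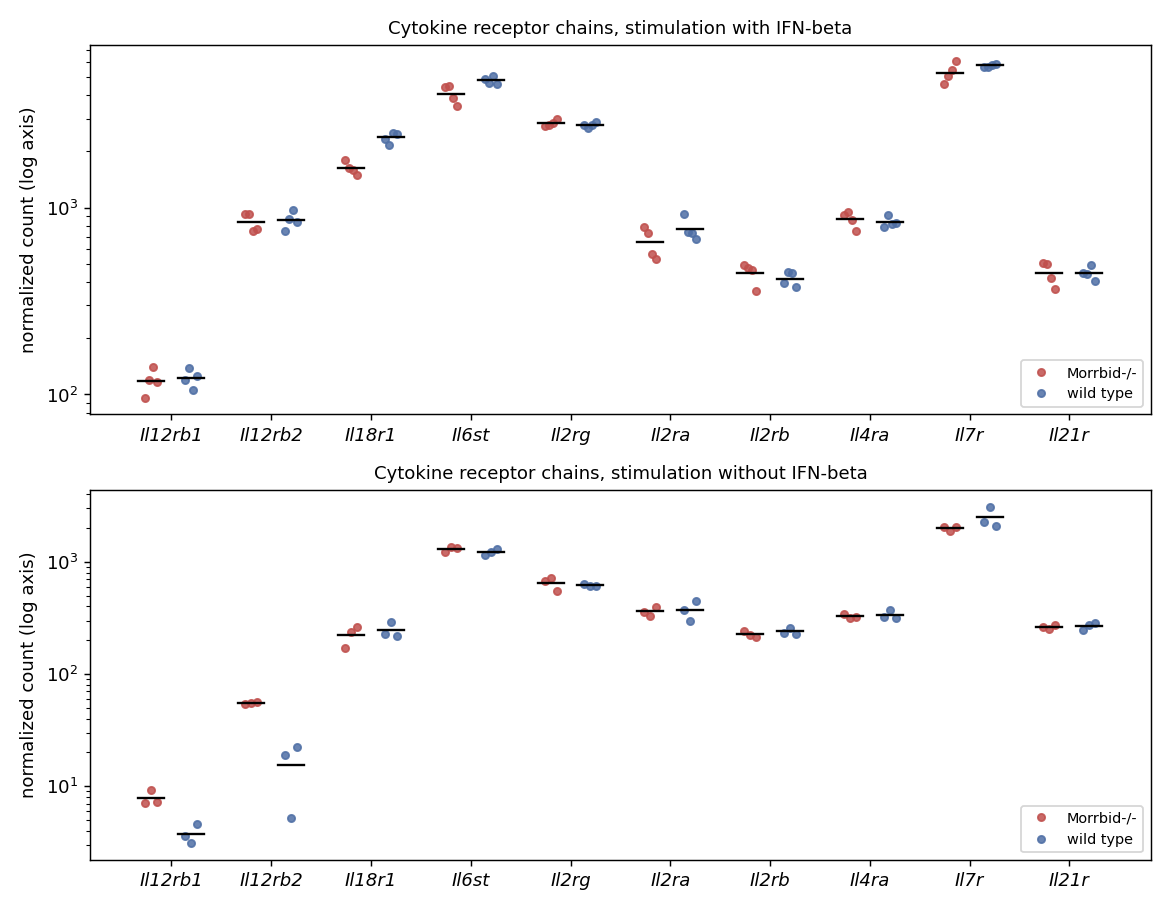
Normalized counts (log axis) of the 10 receptor chains in each library, stimulated with IFN-beta (upper panel) and without it (lower panel); each point is a library, the line is the group mean, and libraries labelled Morrbid-/- stand left of wild type. The groups are apart for Il18r1 and Il6st with IFN-beta, and for Il12rb1, Il12rb2 and Il7r without it.

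The interleukin-12 receptor is built from Il12rb1 (chr8:70808360-70823542, plus strand), which it shares with the interleukin-23 receptor and which binds TYK2, and Il12rb2 (chr6:67285986-67376293, minus strand), the signalling chain that binds JAK2 and recruits STAT4. Without IFN-beta, Il12rb2 was 3.95-fold higher in the libraries labelled Morrbid-/-, and with IFN-beta its level was much higher in both genotypes and no genotype difference was detectable. Without IFN-beta, Il12rb2 stood at 53.7, 55.0 and 56.3 normalized counts in the libraries labelled Morrbid-/-, against 18.8, 5.20 and 22.2 in wild type. Every library labelled Morrbid-/- was above every wild-type library, and the second wild-type library, with 5 reads, was below all others. The means were 55.0 ± 1.28 in the libraries labelled Morrbid-/- and 15.4 ± 8.98 in wild type (SD, n = 3 each). On the log2 scale they differed by 1.98 (SE 0.35, 95% interval 1.27 to 2.70; limma adjusted p = 0.00175). Reads summed to 150 in the libraries labelled Morrbid-/- and 55 in wild type; the read rates stood in a ratio of 3.49 (95% interval 2.55 to 4.84, for counting error only). Leaving out the second wild-type library lowered the log2 difference to 1.39 (limma adjusted p = 0.00352), and limma without its mean-variance trend did not call the gene (adjusted p = 0.324). Among the 3 libraries with 16S shares of 16.01% to 18.9%, 1 labelled Morrbid-/- and 2 wild-type, the log2 ratio was 2.08. These included the second wild-type library, with 5 reads. Among the 3 with shares of 11.6% to 12.8%, 2 labelled Morrbid-/- and 1 wild-type, the log2 ratio was 1.29. In bulk RNA, fewer cells of a type and less RNA per cell cannot be told apart.

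Markers of memory-phenotype CD8 T cells were set beside Il12rb2. Their summed normalized counts ran from 226 to 240 in the libraries labelled Morrbid-/- without IFN-beta, against 97.8 to 132 in wild type. Of 4 tested, 2 were higher, Ly6a (log2 difference 3.24, limma adjusted p = 2.39e-04) and Eomes (0.84, adjusted p = 0.0223, lost in 4 of 6 fits that left out a library). Ly6a averaged 25.0 normalized counts in the libraries labelled Morrbid-/- and 2.29 in wild type. Tbx21, which was tested and did not pass, averaged 17.9 in the libraries labelled Morrbid-/- and 9.03 in wild type. Both genes reached the minimum mean of 10 without IFN-beta only through the libraries labelled Morrbid-/-. All 8 markers of the list were in the table and none was at 0 in every library. With IFN-beta the sums were also apart, at 2604 to 3006 in the libraries labelled Morrbid-/- and 2074 to 2158 in wild type. Most of these counts were of Eomes, at means of 1544 in the libraries labelled Morrbid-/- and 1322 in wild type, and Ly6a, at 962 and 588. Il12rb2 overlapped between the genotypes with IFN-beta. Of 7 markers tested there, 3 were higher, against 5.25% of all genes tested. These were Ly6a (0.71, limma adjusted p = 1.39e-06), Ly6c2 (1.01, adjusted p = 1.36e-04) and Cd44 (0.89, adjusted p = 0.0400), the last lost in 6 of 8 fits that left out a library. Nkg7 of the same list went the other way without passing (-0.36, limma adjusted p = 0.461). The genotype effect on Ly6a was smaller with IFN-beta than without it (-2.54, SE 0.35; adjusted p = 5.66e-05). The part of these cells in the Il12rb2 result was not tested.

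With IFN-beta, Il12rb2 stood at 921, 929, 751 and 765 normalized counts in the libraries labelled Morrbid-/-, against 753, 873, 973 and 836 in wild type. The groups overlapped fully, at means of 842 ± 96.5 in the libraries labelled Morrbid-/- and 859 ± 91.2 in wild type (SD, n = 4 each). The log2 difference was -0.03 (95% interval -0.20 to 0.14; limma adjusted p = 0.878). The genotype effect with IFN-beta minus that without it was -2.01 (SE 0.35, 95% interval -2.74 to -1.29; limma adjusted p = 0.00106). Il12rb2 was the 1 chain of 9 tested to pass this test, against 0.892% of 9078 genes called lower and 0.441% called higher.

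Some exons of Il12rb2, 1519 bases or 40.0% of its exon length, overlap exons of Serbp1 on the opposite strand. Whether the authors' counting used strand is not given in the sources used here, and reads of the overlap may have been shared. Serbp1, which encodes an mRNA-binding protein, averaged 820 ± 39.7 normalized counts in the libraries labelled Morrbid-/- and 859 ± 56.2 in wild type without IFN-beta (SD, n = 3 each; limma adjusted p = 0.963).

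The partner chain Il12rb1 was too low without IFN-beta for the test, with a mean of 5.78 normalized counts against the minimum of 10. It stood at 7.10, 9.17 and 7.16 in the libraries labelled Morrbid-/-, from 7 reads each, against 3.58, 3.12 and 4.59 in wild type, from 4, 3 and 6 reads. The libraries labelled Morrbid-/- were all higher, but the read rates stood in a ratio of 2.07 whose 95% counting interval was 0.988 to 4.49. In limma without the filter, the log2 difference was 0.89 (SE 0.47; adjusted p = 0.854). A difference in Il12rb1 was not detectable at this depth.

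With IFN-beta, Il12rb1 stood at 96.2, 119, 140 and 117 normalized counts in the libraries labelled Morrbid-/-, against 119, 138, 106 and 125 in wild type. The groups overlapped (log2 difference -0.05, 95% interval -0.32 to 0.21; limma adjusted p = 0.851). The ratio of Il12rb2 to Il12rb1 reads, not adjusted for length, was 7.32 ± 1.80 in the libraries labelled Morrbid-/- and 7.12 ± 1.37 in wild type with IFN-beta (SD, n = 4 each). Without IFN-beta the ratio was 7.14 ± 1.00 in the libraries labelled Morrbid-/- and 3.92 ± 1.96 in wild type (SD, n = 3 each), from few reads of Il12rb1.

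**Figure D2:**
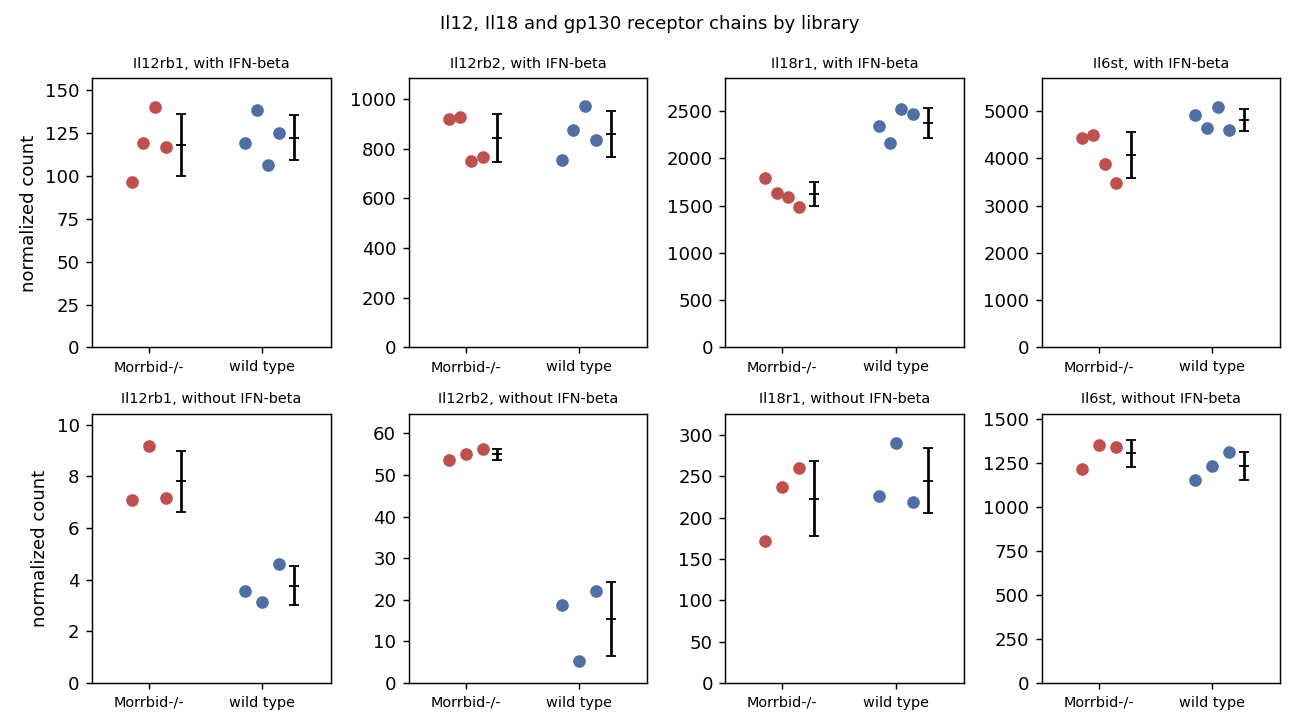
Normalized counts (linear axes from 0) of Il12rb1, Il12rb2, Il18r1 and Il6st with IFN-beta (upper row) and without it (lower row); points are libraries, and bars show the mean and SD, with libraries labelled Morrbid-/- left of wild type. Il12rb2 is apart without IFN-beta, at 53.7 to 56.3 in the libraries labelled Morrbid-/- against 5.20 to 22.2 in wild type, and overlaps with it.

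Il18r1 (chr1:40465552-40500854, plus strand) encodes the ligand-binding chain of the interleukin-18 receptor. With IFN-beta it fell by 31.5% in the libraries labelled Morrbid-/-. These held 1792, 1634, 1594 and 1488 normalized counts, against 2342, 2164, 2525 and 2467 in wild type. Every library labelled Morrbid-/- lay below every wild-type library. The means were 1627 ± 126 in the libraries labelled Morrbid-/- and 2375 ± 160 in wild type (SD, n = 4 each). The log2 difference was -0.55 (SE 0.06, 95% interval -0.68 to -0.41; limma adjusted p = 5.02e-06). Over 19 alternative settings, the log2 difference stayed between -0.59 and -0.50 and the adjusted p between 7.26e-12 and 0.0212.

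Without IFN-beta, Il18r1 stood at 172, 237 and 260 normalized counts in the libraries labelled Morrbid-/-, against 226, 290 and 219 in wild type. The groups overlapped, and the lowest library was the first labelled Morrbid-/-, which also had the highest 16S share, 18.9%. The log2 difference was -0.14 (SE 0.14, 95% interval -0.43 to 0.15; limma adjusted p = 0.947), and it was 0.03 without that library. Between stimulations, the genotype effect on Il18r1 did not differ at the threshold (-0.40, SE 0.16; limma adjusted p = 0.274), although it did without that library (adjusted p = 0.0262).

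The signal-transducing partner Il18rap, which is no member of the set, did not pass. With IFN-beta it averaged 144 normalized counts in the libraries labelled Morrbid-/- and 179 in wild type. Their log2 difference of -0.30 (SE 0.11) came at an adjusted p of 0.0929 by limma. The ratio of Il18r1 to Il18rap reads, not adjusted for length, was 11.4 ± 1.23 in the libraries labelled Morrbid-/- and 13.5 ± 2.16 in wild type (SD, n = 4 each). The ranges overlapped. Without IFN-beta the ratio was 9.48 ± 2.47 in the libraries labelled Morrbid-/- and 15.97 ± 2.06 in wild type (SD, n = 3 each). The ranges, 7.26 to 12.1 in the libraries labelled Morrbid-/- and 13.95 to 18.1 in wild type, did not overlap. Il18rap was low there, averaging 25.4 normalized counts in the libraries labelled Morrbid-/- and 15.7 in wild type, and the ratio was not tested. Neither gene had passed there (Il18rap log2 difference 0.60, SE 0.33; limma adjusted p = 0.868).

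Il6st (chr13:112464070-112506860, plus strand) encodes gp130, the shared signalling chain of the interleukin-6 and interleukin-27 receptors. With IFN-beta it fell by 15.7% in the libraries labelled Morrbid-/-. These held 4431, 4496, 3871 and 3485 normalized counts, against 4909, 4638, 5089 and 4594 in wild type. The groups did not overlap, but the highest library labelled Morrbid-/- was close to the lowest wild-type library. The log2 difference was -0.25 (SE 0.07, 95% interval -0.39 to -0.11; limma adjusted p = 0.0211). That call was lost when replicate 3 or 4 of those labelled Morrbid-/- was left out (adjusted p = 0.0733 and 0.0750), or replicate 1 or 3 of wild type (0.0633 and 0.0585).

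Without IFN-beta, Il6st stood at 1217, 1351 and 1343 normalized counts in the libraries labelled Morrbid-/-, against 1154, 1232 and 1311 in wild type. The groups overlapped, with a log2 difference of 0.08 (95% interval -0.11 to 0.28; limma adjusted p = 0.955). The genotype effect did not differ between stimulations at the threshold (-0.33, SE 0.12; adjusted p = 0.205). Of the private chains that pair with gp130, Il6ra also fell with IFN-beta, at 277 ± 21.6 in the libraries labelled Morrbid-/- and 347 ± 24.9 in wild type (SD, n = 4 each; log2 difference -0.32, limma adjusted p = 0.0187). That call was lost in 3 of 8 fits that left out a library. Il27ra was at 203 in the libraries labelled Morrbid-/- and 234 in wild type and did not pass (-0.20, SE 0.10; adjusted p = 0.226).

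Markers of naive T cells moved with the genotype where Il18r1 and Il6st did. With IFN-beta, 4 of 6 were higher and 0 lower in the libraries labelled Morrbid-/-, by limma, edgeR and DESeq2, at a median log2 difference of 0.33. Over all genes limma called 5.25% higher and 4.84% lower. Lef1, a transcription factor of naive and early memory T cells, stood at 2549, 2677, 2430 and 3294 normalized counts in the libraries labelled Morrbid-/-, against 1733, 1873, 1875 and 2115 in wild type. The groups did not overlap (log2 difference 0.52, SE 0.08; limma adjusted p = 7.59e-05). Its partner factor Tcf7 (0.41, adjusted p = 1.05e-04), the lymph node homing receptor Ccr7 (0.51, adjusted p = 1.68e-04) and Klf2 (0.25) were the others. The sums over the list overlapped, at 23908 to 25533 in the libraries labelled Morrbid-/- and 23208 to 24211 in wild type, and no marker was at 0. Without IFN-beta, 0 of 6 passed by limma, edgeR or DESeq2 and 1 had an unadjusted p under 0.05, S1pr1 (-0.31, limma adjusted p = 0.384). Tcf7 had the next smallest p there (-0.11, adjusted p = 0.943). The effect differed between stimulations for Lef1 (0.60, adjusted p = 0.01001) and Tcf7 (0.52, adjusted p = 0.0102).

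Of the CD4 and regulatory T cell markers, Ikzf2, which encodes Helios, was the 1 tested. With IFN-beta it was higher, at 819 ± 64.1 in the libraries labelled Morrbid-/- and 675 ± 49.99 in wild type (SD, n = 4 each; log2 difference 0.28, limma adjusted p = 0.0164), a call lost in 3 of 8 fits that left out a library. Sums over this list ran from 751 to 910 in the libraries labelled Morrbid-/- and from 612 to 726 in wild type with IFN-beta, and from 261 to 335 in the libraries labelled Morrbid-/- and 155 to 313 in wild type without it. Without IFN-beta, Ikzf2 did not pass (0.41, adjusted p = 0.669). No CD8 T cell marker passed by limma, edgeR or DESeq2 in either stimulation. Those nearest were Cd3d (-0.40, adjusted p = 0.378) and Thy1 (-0.30, adjusted p = 0.582) without IFN-beta, and Cd3e (-0.18, adjusted p = 0.118) and Cd3g (-0.16, adjusted p = 0.342) with it. An unadjusted p under 0.05 was reached by 2 of these markers without IFN-beta and 1 with it, beside 567 of 9290 and 2434 of 9964 genes. Cd68 of the myeloid markers (0.62, adjusted p = 0.164) and Cd79a of the B cell markers (0.51, adjusted p = 0.413) did not pass with IFN-beta. The part of the cells these markers stand for in the Il18r1 and Il6st results was not tested.

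**Figure D3:**
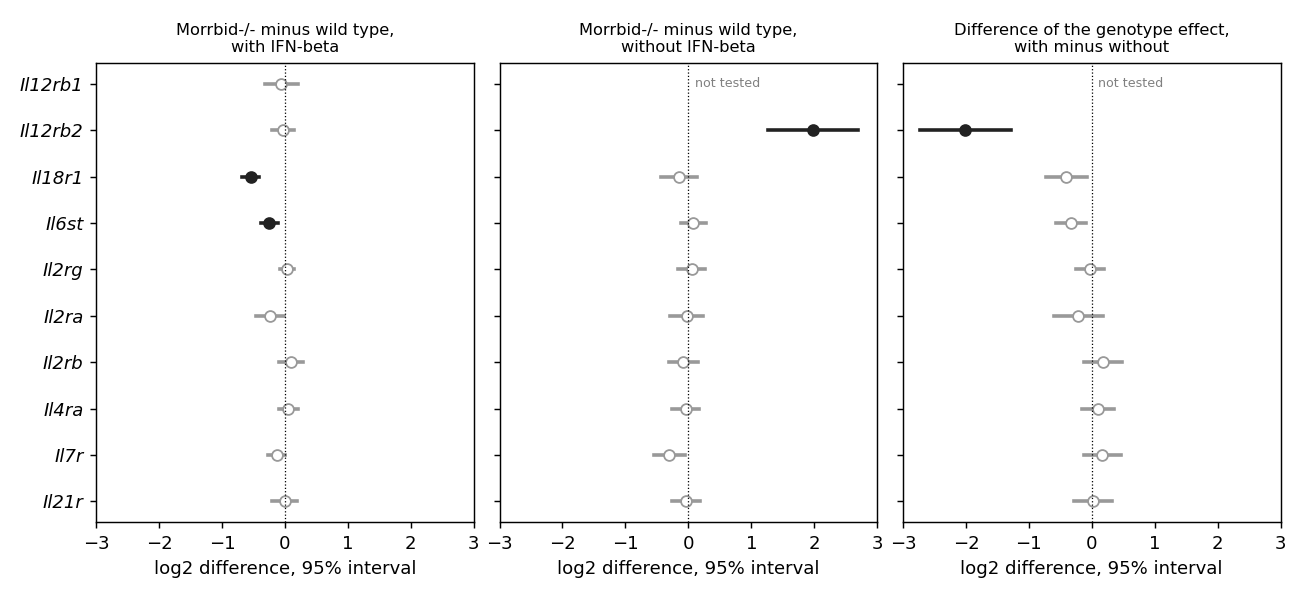
Log2 difference of each receptor chain, libraries labelled Morrbid-/- minus wild type, with IFN-beta (left) and without it (middle), and the difference of these effects, with minus without (right). Points are limma estimates, bars their 95% intervals, and filled points passed the adjusted threshold. Il18r1 and Il6st are filled on the left, and Il12rb2 is filled in the middle and on the right.

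The remaining 6 chains belong to receptors that use the common gamma chain, and none passed this test in either stimulation. Il2rg (chrX:101264385-101268255, minus strand) is the common gamma chain that binds JAK3. With IFN-beta it stood at 2746, 2755, 2853 and 2981 normalized counts in the libraries labelled Morrbid-/-, against 2769, 2685, 2770 and 2874 in wild type. The groups overlapped, with a log2 difference of 0.03 (95% interval -0.08 to 0.14; limma adjusted p = 0.788). Without IFN-beta it stood at 675, 711 and 552 in the libraries labelled Morrbid-/-, against 633, 612 and 613 in wild type, a log2 difference of 0.05 (95% interval -0.16 to 0.26; adjusted p = 0.975). A share of 40.8% of its exon length overlaps Gm20489 on the same strand, which was not analysed here.

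Il7r (chr15:9506159-9529941, minus strand) is the interleukin-7 receptor alpha chain, which naive T cells carry at high levels. Without IFN-beta it stood at 2043, 1896 and 2028 in the libraries labelled Morrbid-/-, against 2279, 3105 and 2087 in wild type. The libraries labelled Morrbid-/- were all lower than wild type, in a comparison where 10.9% of all genes did not overlap. The log2 difference of -0.30 (SE 0.12, 95% interval -0.55 to -0.06) did not pass (limma adjusted p = 0.621). Among the libraries of high 16S share, 1 labelled Morrbid-/- and 2 wild-type, the log2 ratio was -0.40. These included the highest wild-type library, at 3105. Among those of low share, 2 labelled Morrbid-/- and 1 wild-type, the log2 ratio was -0.09.

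With IFN-beta, Il7r stood at 4572, 5089, 5426 and 6062 normalized counts in the libraries labelled Morrbid-/-, against 5687, 5682, 5838 and 5885 in wild type. The coefficient of variation was 11.8% over the libraries labelled Morrbid-/- and 1.80% over wild type, and the highest of all was labelled Morrbid-/-. The log2 difference was -0.13 (SE 0.07; limma adjusted p = 0.206), and it passed without that library (adjusted p = 0.0284).

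Il2ra (chr2:11642792-11693194, plus strand) encodes CD25, the alpha chain that gives the interleukin-2 receptor its high affinity and that activation induces. With IFN-beta it stood at 783, 736, 562 and 530 normalized counts in the libraries labelled Morrbid-/-, against 920, 740, 728 and 677 in wild type. The groups overlapped, replicates 3 and 4 of those labelled Morrbid-/- being the lowest. The log2 difference of -0.24 (SE 0.11, 95% interval -0.46 to -0.02) did not pass (limma adjusted p = 0.161). Among fits that left out 1 library, it passed without the first library labelled Morrbid-/- (adjusted p = 0.0482). Without IFN-beta, Il2ra stood at 360, 331 and 396 in the libraries labelled Morrbid-/-, against 375, 294 and 452 in wild type (log2 difference -0.03; adjusted p = 0.986).

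Il2rb (chr15:78479256-78511621, minus strand), the signalling chain shared by interleukin-2 and interleukin-15, ran from 359 to 496 normalized counts with IFN-beta in libraries labelled Morrbid-/-, against 374 to 454 in wild type. The log2 difference was 0.10 (95% interval -0.10 to 0.29; limma adjusted p = 0.581). Without IFN-beta it ran from 214 to 243 in the libraries labelled Morrbid-/- and from 227 to 258 in wild type (log2 difference -0.08; adjusted p = 0.963). The groups overlapped in both stimulations.

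Il4ra (chr7:125552271-125579474, plus strand), the interleukin-4 and interleukin-13 receptor alpha chain, and Il21r (chr7:125603252-125634397, plus strand), the interleukin-21 receptor, are neighbours on chromosome 7. With IFN-beta, Il4ra averaged 870 ± 84.4 normalized counts in the libraries labelled Morrbid-/- and 837 ± 55.2 in wild type (SD, n = 4 each; log2 difference 0.05, 95% interval -0.10 to 0.21, limma adjusted p = 0.734). Il21r averaged 448 ± 65.3 in the libraries labelled Morrbid-/- and 448 ± 36.5 in wild type (SD, n = 4 each; log2 difference -0.01, 95% interval -0.20 to 0.19, adjusted p = 0.980). The groups overlapped for both genes. Without IFN-beta, Il4ra averaged 327 ± 13.3 and Il21r 262 ± 10.4 in the libraries labelled Morrbid-/-, against 338 ± 30.4 and 268 ± 20.6 in wild type (SD, n = 3 each; adjusted p = 0.978 and 0.982).

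With IFN-beta, 7 of the 10 chains were each higher in replicates 1 and 2 labelled Morrbid-/- than in replicates 3 and 4. These were Il2ra, Il2rb, Il4ra, Il12rb2, Il18r1, Il21r and Il6st. Il7r and Il2rg were lower in replicates 1 and 2 than in replicates 3 and 4, and Il12rb1 was neither. The share of all genes that split the same way was not counted, so these counts cannot be read as a trait of the receptor chains. The 16S shares of these libraries were 9.84%, 9.05%, 9.43% and 10.5%, and their part in this spread was not tested.

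Levels were compared between chains as RPKM, recovered reads divided by exon length and by the library total. In wild type without IFN-beta, Il7r was highest at 221 ± 43.8 and Il2rg followed at 144 ± 6.82, then Il6st at 46.1 ± 5.59 (SD, n = 3 each). Their ranges did not overlap. Il21r, Il2ra, Il4ra, Il2rb and Il18r1 formed a run from 33.5 to 21.0 in which the ranges of neighbours overlapped. Il12rb2 at 1.70 ± 1.03 and Il12rb1 at 0.501 ± 0.128 were the lowest, and their ranges overlapped. In the libraries labelled Morrbid-/-, Il12rb2 was at 6.23 ± 0.471 and Il12rb1 at 1.07 ± 0.187 (SD, n = 3 each).

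With IFN-beta, the order in wild type was Il2rg at 230 ± 6.44, Il7r at 183 ± 3.84, Il18r1 at 72.8 ± 4.92, Il6st at 64.0 ± 2.99 and Il12rb2 at 33.4 ± 3.68 RPKM (SD, n = 4 each). Il4ra, Il2ra and Il21r followed at 22.8, 21.7 and 19.9, then Il2rb at 14.4 and Il12rb1 at 5.76. Of neighbours in this order, the ranges overlapped for Il18r1 and Il6st, for Il4ra and Il2ra, and for Il2ra and Il21r. In the libraries labelled Morrbid-/-, Il6st at 55.7 ± 7.10 stood above Il18r1 at 51.3 ± 4.41 (SD, n = 4 each), so the order of these neighbours was turned round, within their spread.

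**Figure D4:**
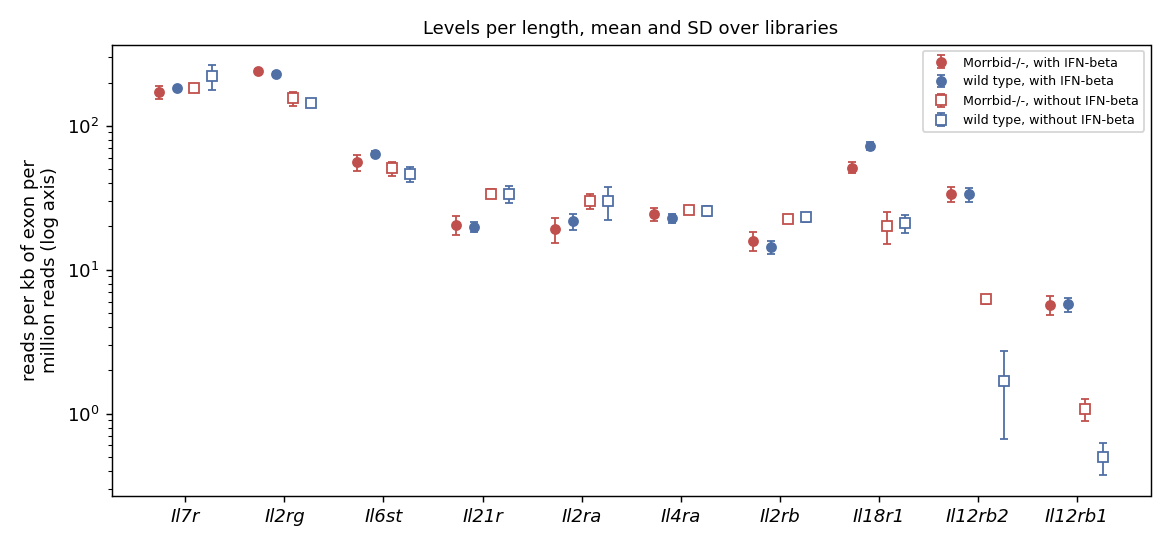
Levels of the receptor chains in RPKM, reads per exon length and library total (log axis), as mean and SD over the libraries of each group; filled circles are with IFN-beta, open squares without it, red is labelled Morrbid-/- and blue wild type. Il7r and Il2rg are the highest chains and Il12rb1 the lowest, and Il12rb2 spans the widest range, from 1.70 to 33.7.

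The tables were normalized separately, so the stimulations were set side by side as RPM, reads scaled to the library total, and not tested. Il12rb2 held 128 ± 15.5 RPM with IFN-beta and 23.6 ± 1.79 without it in the libraries labelled Morrbid-/-, a ratio of 5.41. In wild type it held 127 ± 14.0 with IFN-beta and 6.44 ± 3.93 without it, a ratio of 19.7. The libraries of the genotypes overlapped with IFN-beta and were apart without it. Il12rb1 had ratios of 5.34 in the libraries labelled Morrbid-/- and 11.5 in wild type.

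Il18r1 held 247 ± 21.2 RPM with IFN-beta and 96.5 ± 24.2 without it in the libraries labelled Morrbid-/-, a ratio of 2.56. In wild type it held 351 ± 23.7 with IFN-beta and 101 ± 15.0 without it, a ratio of 3.46. Here the libraries of the genotypes were apart with IFN-beta and overlapped without it. Il6st had ratios of 1.10 in the libraries labelled Morrbid-/- and 1.39 in wild type. Il2rg had ratios of 1.55 in the libraries labelled Morrbid-/- and 1.60 in wild type, while Il7r, Il4ra, Il2ra, Il2rb and Il21r lay between 0.593 and 0.941 in both genotypes.

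Other receptor chains of T cells were listed for comparison. With IFN-beta, of 16 tested, 1 was higher and 3 were lower in the libraries labelled Morrbid-/-, at a median log2 difference of -0.07 beside 0.00 over all genes. Over all genes limma called 5.25% higher and 4.84% lower with IFN-beta, and 0.538% and 0.0969% without it. An unadjusted p under 0.05 was reached by 2434 of 9964 genes with IFN-beta and 567 of 9290 without it. The counts of this list and of those below stand beside these. Il10ra, the interleukin-10 receptor alpha chain, stood at 236, 265, 247 and 239 normalized counts in the libraries labelled Morrbid-/-, against 368, 361, 374 and 417 in wild type. All 4 libraries labelled Morrbid-/- were lower (log2 difference -0.62, SE 0.08; limma adjusted p = 2.66e-05). Il17ra, the interleukin-17 receptor, averaged 981 ± 43.5 in the libraries labelled Morrbid-/- and 1245 ± 104 in wild type (-0.34; adjusted p = 0.00161). Tgfbr2, a TGF-beta receptor chain, was higher, at 1589 ± 33.3 in the libraries labelled Morrbid-/- and 1289 ± 49.2 in wild type (0.30; adjusted p = 0.00121; SD, n = 4 each).

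Without IFN-beta, 0 of 15 tested passed by limma, by edgeR or by DESeq2, and 2 had an unadjusted p under 0.05. These were Il15ra, which presents interleukin-15, at 14.9 ± 2.92 in the libraries labelled Morrbid-/- and 5.55 ± 1.50 in wild type (SD, n = 3 each; log2 difference 1.29, limma adjusted p = 0.331), and Ifngr2, a chain of the interferon-gamma receptor (-0.38, adjusted p = 0.769). The genotype effect differed between stimulations for Tgfbr2 (0.41, adjusted p = 0.0447) and for Il15ra (-1.34, adjusted p = 0.0483), but for neither by edgeR. Without IFN-beta, Il15ra reached the minimum mean of 10 only through the libraries labelled Morrbid-/-.

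The kinases, STATs and adaptors that serve these receptors had 3 of 15 tested higher and 0 lower with IFN-beta, at a median of 0.09. An unadjusted p under 0.05 was reached by 3, all higher, and edgeR and DESeq2 called 2 higher. Jak2, the kinase bound to Il12rb2, stood at 4277, 3967, 4251 and 4563 normalized counts in the libraries labelled Morrbid-/-, against 2850, 2968, 3104 and 2706 in wild type. The groups were far apart (log2 difference 0.55, SE 0.06; limma adjusted p = 9.93e-07). Stat4, the transcription factor used by interleukin-12, was also higher, at 1883 ± 165 in the libraries labelled Morrbid-/- and 1596 ± 118 in wild type (0.24; adjusted p = 0.0247; SD, n = 4 each). Irak2, a kinase of the interleukin-18 pathway, averaged 56.2 ± 3.41 in the libraries labelled Morrbid-/- and 38.0 ± 6.50 in wild type (0.57; adjusted p = 0.0460), which edgeR and DESeq2 did not call.

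Without IFN-beta, 0 of the 15 passed by limma, edgeR or DESeq2, at a median of 0.07, and 3 had an unadjusted p under 0.05. Jak3, the kinase bound to the common gamma chain, stood at 74.0, 91.7 and 91.1 normalized counts in the libraries labelled Morrbid-/-, against 47.4, 58.3 and 66.5 in wild type. The groups did not overlap (log2 difference 0.58, SE 0.18; limma adjusted p = 0.303), while with IFN-beta they overlapped (-0.12, SE 0.11; adjusted p = 0.552). Stat3, the transcription factor recruited by gp130, averaged 332 ± 12.0 in the libraries labelled Morrbid-/- and 269 ± 22.1 in wild type without IFN-beta (SD, n = 3 each; log2 difference 0.31, limma adjusted p = 0.462). Stat4 had a log2 difference of -0.06 there (SE 0.10; adjusted p = 0.971).

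Feedback inhibitors of cytokine signalling had 1 of 15 tested higher and 0 lower with IFN-beta by limma, edgeR and DESeq2, at a median of -0.03. That count was near the 5.25% of all genes that limma called higher. The higher gene was Socs5, at 244 ± 37.3 in the libraries labelled Morrbid-/- and 185 ± 38.4 in wild type (SD, n = 4 each; log2 difference 0.40, limma adjusted p = 0.0417). Without IFN-beta, 0 of 15 passed by these tools and 0 had an unadjusted p under 0.05. Cish and Socs1, which STAT factors induce, had log2 differences of 0.83 (SE 0.45) and 0.51 (SE 0.28), each with an adjusted p of 0.868.

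Genes that STAT factors drive in T cells had 3 of 18 tested higher and 1 lower with IFN-beta, at a median of 0.15. The lower one was Bcl2, a survival gene downstream of interleukin-7, at 575, 586, 519 and 515 normalized counts in the libraries labelled Morrbid-/-, against 728, 868, 975 and 780 in wild type. The groups did not overlap (log2 difference -0.60, SE 0.08; limma adjusted p = 2.80e-05). Junb (0.50), the protease gene Furin (0.39) and Bcl3 (0.30) rose, with adjusted p-values of 0.00109, 0.00136 and 0.0457. The Bcl3 call was lost in 7 of 8 fits that left out a library, and DESeq2 called 2 of the list higher. Without IFN-beta, 1 of 16 was higher and 0 lower, the kinase gene Pim2, at 152, 153 and 148 in the libraries labelled Morrbid-/-, against 80.4, 85.3 and 100 in wild type (0.77, SE 0.14; adjusted p = 0.00228). Its groups were well apart, and its effect with IFN-beta was smaller by 0.58 (adjusted p = 0.0101).

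Transcription factors known to act on receptor genes had 3 of 14 tested higher and 0 lower with IFN-beta, at a median of 0.19. Rela averaged 554 ± 31.7 in the libraries labelled Morrbid-/- and 349 ± 37.1 in wild type, a log2 difference of 0.67 (SD, n = 4 each; limma adjusted p = 1.04e-05). Nfkb1 averaged 1714 ± 97.6 in the libraries labelled Morrbid-/- and 1287 ± 65.1 in wild type, a difference of 0.41 (adjusted p = 7.70e-05). Klf2, a factor of resting T cells, rose by 0.25 (adjusted p = 0.0337), a call lost in 5 of 8 fits that left out a library. Without IFN-beta, 1 of 14 was higher and 0 lower, Eomes, at 98.3, 83.8 and 96.2 in the libraries labelled Morrbid-/-, against 51.8, 40.6 and 64.2 in wild type. The groups did not overlap, and DESeq2 did not call it.

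The ligands of these receptors were mostly below the level tested. Of 17 in the list, 3 were tested with IFN-beta and none without it. None of the 3 passed by limma, edgeR or DESeq2, and 2 had an unadjusted p under 0.05. Il15 stood at 13.6 ± 3.81 in the libraries labelled Morrbid-/- and 7.54 ± 5.58 in wild type (log2 difference 1.05, limma adjusted p = 0.169), and Lif at 106 ± 46.4 in the libraries labelled Morrbid-/- and 139 ± 28.3 in wild type (-0.50, adjusted p = 0.197; SD, n = 4 each).

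In 3 of these lists no gene passed the limma test between stimulations. Over all genes, 1090 of 9078 had an unadjusted p under 0.05 in that test. The pair of smallest p in each list was as follows. Of the kinases, STATs and adaptors it was Jak2 (0.39, limma adjusted p = 0.0563) and Jak3 (-0.69, adjusted p = 0.0866), where 5 of 15 had an unadjusted p under 0.05, edgeR called 0 and DESeq2 called 1. Of the feedback inhibitors it was Socs1 (-0.77, adjusted p = 0.0897) and the adaptor gene Sh2b3 (0.44, adjusted p = 0.529), where 1 of 15 had an unadjusted p under 0.05 and neither edgeR nor DESeq2 called any. Of the regulators it was Eomes (-0.62, adjusted p = 0.0612) and Rela (0.56, adjusted p = 0.0684), where 5 of 14 had an unadjusted p under 0.05 and neither tool called any.

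Across the 8 libraries with IFN-beta, the genes whose log2 levels ran most like those of the chains that passed were sought among 6976 genes with a mean of at least 50. The libraries are shared by all genes, so these Pearson correlations are descriptions. Il18r1 was most like Gpr65 (r = 0.986), Wrn (0.980) and Siah1a (0.979). Il6st was most like Ehd4 (0.973), Malt1 (0.961) and Papola (0.959). Il12rb2 was most like Etv3 (0.929), Phc2 (0.917) and Smg8 (0.909).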

How the data were processed

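Stranded libraries of total RNA were sequenced as 75-base pairs, per the labels' protocols. Values are the authors' normalized counts, treated as a signal, deposited as 2 tables that were normalized apart, one per stimulation. Tools named in the submitters' processing notes are Trimmomatic, STAR 2.5, featureCounts and DESeq2, with GRCm38 and mm10 as builds. The sources used here do not give their roles, the annotation, the use of strand or any filter, and overlapping genes may share reads. Each value was a whole multiple of what 1 read is worth in its library, so whole reads, within 0.01, could be recovered for 100% of values.

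The test was limma 3.58.1 (R 4.3.3) with a mean-variance trend, on log2(normalized count + 1), a scale that understates the change of low genes. It took 9964 genes with IFN-beta and 9290 without it, those of mean 10 or more, and called 1005 and 59 at a Benjamini-Hochberg adjusted p under 0.05. The effects of both tables were compared by an interaction contrast over 9078 genes in 14 libraries. Alternatives were other pseudocounts and filters, equal totals, no trend, edgeR 4.0.16 and DESeq2 1.42.0 on recovered reads, a replicate block, the 16S share as a covariate, a single fit and leave-one-out fits. The script was tested on simulated data.

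The receptor chains and gene lists were chosen with earlier results of these data known. One gene is not reported here and was left out of the lists. All 10 chains were named. From each list and comparison, up to 4 genes that passed were named by adjusted p, or else the pair of smallest p; some of these pairs are not described. For each chain that passed, the 3 most correlated genes were named. Of 15034 Entrez identifiers, 14357 had a match in RefSeq (GRCm38.p6), the source of coordinates and promoters. Exon lengths and overlaps came from GENCODE vM21 on GRCm38.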

Additional observations from a re-analysis of the deposited data

Results flagged for a closer look

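The genotype effect differed between stimulations for 7 of the named genes, by limma's interaction test. With IFN-beta minus without it, the log2 difference was -2.54 for Ly6a (adjusted p = 5.66e-05), -2.01 for Il12rb2 (adjusted p = 0.00106), -1.34 for Il15ra (adjusted p = 0.0483), -0.58 for Pim2 (adjusted p = 0.0101), 0.60 for Lef1 (adjusted p = 0.01001), 0.52 for Tcf7 (adjusted p = 0.0102) and 0.41 for Tgfbr2 (adjusted p = 0.0447). Without IFN-beta, Ly6a and Il15ra reached the minimum mean of 10 only through the libraries labelled Morrbid-/-. Leaving out single libraries kept the calls of Ly6a, Il12rb2, Pim2, Lef1 and Tcf7 in all 14 cases. The call of Il15ra was lost in 9 of the 11 cases in which it was tested, and that of Tgfbr2 in 11 of 14.

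Among 102 groups of 4 libraries examined with Dixon's test, 4 held a library far from the others, and chance alone gives about 1 in 20. They were Irak2 in the first wild-type library with IFN-beta (28.3 normalized counts), Socs5 in the third wild-type library with IFN-beta (243), and Stat4 (2130) and Cd3g (635) in the fourth library labelled Morrbid-/- with IFN-beta. None was a receptor chain. Cd3g had not passed. The calls of Irak2, Socs5 and Stat4 with IFN-beta were among those lost when single libraries were left out, in 7, 5 and 3 of 8 cases.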

How the results depend on the processing

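The lower Il18r1 with IFN-beta passed in all 19 alternatives. The higher Il12rb2 without IFN-beta passed in 15 of 16 (1.39 to 2.34), failing in limma without the trend (adjusted p = 0.324), and could not be tested at a mean of at least 50. Il6st with IFN-beta passed in 12 of 19.

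Without IFN-beta, a mean of at least 50 gave 0 chains higher and 5 genes lower; no trend 0 chains higher, 13 genes higher and 4 lower; the 16S covariate 32 genes lower; one fit of all libraries 101 higher and 16 lower. With IFN-beta, 1 chain was lower at equal totals, without the trend and in one fit. Genes higher and lower were 171 and 134 without the trend, 301 and 253 in one fit, and 730 and 344 at equal totals, which moved the balance toward higher calls. For the difference, a mean of at least 50 gave 0 chains lower, and no trend 0 chains lower, 15 genes higher and 51 lower.

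Signs turned only for values that had not passed. At equal totals these were Il2ra 0.024, Il21r 0.021 and Il4ra 0.00868 without IFN-beta, and Il12rb2 0.010 and Il21r 0.034 with it. Il21r with IFN-beta was 0.00285 by edgeR and 0.00307 by DESeq2. With the 16S covariate, Il2rb was -0.0071 and Il4ra -0.017 with IFN-beta, and Il21r -0.033 for the difference.

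Leaving out each library with IFN-beta gave 321 to 555 genes higher, 288 to 466 lower and 1 to 3 chains lower, Il12rb1 at -0.14 to 0.038, Il12rb2 at -0.091 to 0.032 and Il21r at -0.066 to 0.085. Without IFN-beta it gave 31 to 52 genes higher, 6 to 23 lower, Il18r1 at -0.26 to 0.030, Il21r at -0.091 to 0.020, Il2ra at -0.19 to 0.12, Il2rg at -0.021 to 0.16 and Il4ra at -0.089 to 0.030. For the difference it gave 24 to 47 genes higher, 1 to 2 chains lower, Il21r at -0.036 to 0.11, Il2rg at -0.13 to 0.051, Il7r at -0.00056 to 0.29, Ikzf2 at -0.36 to 0.14 and Cd68 at -0.50 to 0.12. The causes were not tested.

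Same-numbered libraries deviated together weakly (r = 0.378, -0.0235 and 0.301 without IFN-beta; 0.0707, 0.0298, 0.127 and 0.242 with it), so numbers were not taken as pairs. With the replicate number as a block, 94 genes were higher and 75 lower without IFN-beta, with 1 chain lower (Il7r, adjusted p = 0.0105). With IFN-beta, 3 chains were then lower, Il2ra being added (adjusted p = 0.0147). For the difference, the block gave 148 genes higher, 163 lower and 2 chains lower, Il6st being added (adjusted p = 0.0408).

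Depth limits Il12rb1 without IFN-beta, with 21 reads in the libraries labelled Morrbid-/- and 13 in wild type.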
